A study of Mus musculus with 3 samples.

Results

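The transcripts described here are those of 9 genes of the actin cytoskeleton and of serum response factor (SRF), Actb, Actg1, Srf, Vcl, Cnn2, Tpm1, Tpm4, Flna and Zyx, chosen as a list of symbols out of the 32285 genes counted; each symbol matched 1 gene. They were followed in E14 mouse embryonic stem cells (129/Ola background), a line maintained here in 15% serum with leukemia inhibitory factor. Cells of one group received 250 µg/mL cycloheximide in 0.007% ethanol for 3 h, those of another the same for 6 h, and control cells ethanol alone for 6 h, each beginning 24 h after seeding. Cells were detached with trypsin and frozen before 10x Genomics 3' capture, so all 3 groups share serum, detachment and freezing. There was 1 library per group, so no difference below has a replicate check and no test between conditions was made.

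Actin exists as monomers and filaments, and free monomer binds the coactivators MRTF-A and MRTF-B and keeps them from SRF. When filaments grow and monomer is used up, MRTF enters the nucleus, joins SRF and raises transcription of cytoskeletal genes, the actins and SRF itself among them. Serum signals also reach SRF through ternary complex factors of the Elk family, which act on immediate early genes such as Fos and Egr1. SRF binds a DNA element called the CArG box. Cycloheximide stops translation elongation, and so the supply of new protein, while transcription can go on.

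The CArG box was looked for in RefSeq promoter windows (GRCm38.p6) that run from 250 bases before to 50 bases after an annotated start. Windows were found for 8 of the 9 genes, all but Actb, and 4 of these 8 held the element, against 1.63% of all 32851 windows. The genes were listed as SRF targets, so this share is no test. In lists described below, it was in 2 of 4 other actin isoforms, 3 of 12 focal adhesion partners and 5 of 22 other MRTF and SRF targets. It was in 1 of 6 immediate early genes, 1 of 8 Arp2/3 genes, 0 of 20 filament turnover genes and 0 of 5 SRF cofactors. A list gene counted when any of its windows held the element, whereas 1.63% is a share of single windows. The immediate early match was in Egr2, which had 5 windows. The consensus of the element covers both strands at once. Distances given next are counted to the RefSeq start of each window. Srf held 2 matches, CCATATAAGG at 82 to 73 bases before its start and CCATAAAAGG at 62 to 53 bases before it. Actg1 held CCATATATGG at 90 to 81 bases, Cnn2 CCTTATAAGG at 56 to 47 bases and Vcl CCTTATAAGG at 227 to 218 bases before the start. The windows of Tpm1, Tpm4, Flna and Zyx held none, which says only that these letters are not in those windows. Each of these genes had 1 window, placed at a RefSeq start downstream of the GENCODE start given with the gene below. The Flna window (74246485 to 74246784 on chromosome X) and the Tpm4 window (72135038 to 72135337 on chromosome 8) lie wholly downstream of that start, and the Tpm1 and Zyx windows span it, so sequence before the GENCODE starts was searched only in part or not at all. An ETS core, CCGGAA on either strand, the kind of element that ternary complex factors bind, was in 1 of the 8 windows, that of Srf, against 14.9% of all windows, and overlapped neither CArG match. The 4 promoters with a match are printed up to the base before the earlier of the RefSeq and GENCODE starts, 5′ to 3′ along the gene, with the CArG box in capitals, to show where the element lies before each start.
Srf (chr17:46556176-46556412, - strand): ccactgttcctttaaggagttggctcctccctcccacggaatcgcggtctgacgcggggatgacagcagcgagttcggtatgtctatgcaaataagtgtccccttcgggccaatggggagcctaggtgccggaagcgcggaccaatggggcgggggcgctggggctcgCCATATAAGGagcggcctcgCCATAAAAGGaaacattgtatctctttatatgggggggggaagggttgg
Actg1 (chr11:120348543-120348745, - strand): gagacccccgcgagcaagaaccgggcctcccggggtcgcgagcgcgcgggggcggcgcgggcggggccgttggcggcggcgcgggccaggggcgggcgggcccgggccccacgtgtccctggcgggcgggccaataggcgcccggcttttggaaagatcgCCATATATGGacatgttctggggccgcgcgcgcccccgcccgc
Cnn2 (chr10:79988350-79988583, + strand): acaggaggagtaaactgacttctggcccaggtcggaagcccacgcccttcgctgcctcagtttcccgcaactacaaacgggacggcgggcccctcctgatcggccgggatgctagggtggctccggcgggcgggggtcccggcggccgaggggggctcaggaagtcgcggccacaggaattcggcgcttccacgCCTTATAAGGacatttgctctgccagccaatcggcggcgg
Vcl (chr14:20929148-20929397, + strand): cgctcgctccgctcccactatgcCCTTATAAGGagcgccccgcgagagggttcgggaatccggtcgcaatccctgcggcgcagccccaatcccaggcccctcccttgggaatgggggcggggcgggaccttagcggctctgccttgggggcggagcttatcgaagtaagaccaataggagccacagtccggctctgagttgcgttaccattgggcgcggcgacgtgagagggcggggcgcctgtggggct

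Cells were barcodes with at least 15000 UMIs (unique molecular identifiers, each standing for 1 captured molecule) and 1 to 20% mitochondrial UMIs: 2187 control cells, 1739 cells treated for 3 h and 2554 treated for 6 h, with median totals of 43160, 51726 and 46200 UMIs. Of 6480 kept barcodes, 14 were copies of 7 sequences found in more than 1 library. All 9 embryonic stem cell markers examined, Pou5f1, Sox2 and Nanog among them, were present at means of at least 10 CPM (UMIs of a gene scaled to a common library total), and summed to 7201, 8165 and 7281 CPM. Markers of fibroblasts (8 genes) summed to 2.96, 2.01 and 1.75 CPM in the control, 3 h and 6 h libraries, with Col3a1, Lum and Postn at 0 in all 3. Smooth muscle markers (5 genes) summed to 24.0, 23.2 and 21.6 CPM, of which Des gave 20.1, 18.7 and 16.4 CPM. Primitive endoderm markers (6 genes) summed to 12.5, 9.84 and 8.14 CPM, with Sox7 at 5.55, 1.32 and 0.299 CPM, Gata4 at 1.88, 2.42 and 3.35 CPM and Sox17 at 0.494, 1.41 and 1.08 CPM. Mesoderm markers (4 genes) summed to 4.05, 4.48 and 6.81 CPM, and 2-cell-like markers (5 genes) to 0.583, 0.215 and 0.00713 CPM. Mitochondrial UMIs made up 4.57%, 3.51% and 2.94% of the total. The part of these shifts in the results below was not tested.

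Across the list, Flna had the largest difference from the control: its level at 6 h was 0.511 times that of the control. Tpm4 was also lower at both times, Srf was lower at 6 h only after being near the control at 3 h, and Actb was slightly lower at 6 h. Tpm1 was higher at 6 h, and Cnn2 and Zyx were highest at 3 h. Actg1 and Vcl lay close to the control at both times, at log2 ratios between -0.09 and 0.12. Levels below are CPM summed over the cells of a library, with exact 95% Poisson intervals, and log2 ratios of CPM carry exact conditional binomial intervals; both cover counting error only. A ratio was called when it passed 1.5-fold with an interval excluding equality, among genes whose mean over libraries reached 10 CPM. A gene under 10 CPM in the control passes this floor only through higher treated levels. The same floor sets the shares given for all genes. Of the 9 genes, 7 passed this floor; Srf and Zyx, at means of 8.57 and 9.12 CPM, did not and are described by their values.

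At 3 h, 0 of the 7 genes was called higher, where 13.9% of all 7608 genes tested were, and 0 was called lower, where 2.13% were (16% either way). At 6 h, 0 was called higher against 22.1% of all genes, and 1, Flna, was called lower against 7.79% (29.9% either way). Between 6 h and 3 h, 0 was called higher against 1.74% of all genes and 0 lower against 2.52% (4.26% either way). The median log2 ratio of the 7 genes was -0.02 at 3 h, beside 0.11 for all genes, -0.09 at 6 h, beside 0.17, and -0.22 for 6 h against 3 h, beside 0.04. Both comparisons with the control use the same control library, which had 6 h of ethanol. There was no 3 h ethanol library, so at 3 h cycloheximide and the shorter exposure time cannot be told apart. The signs of small ratios depended on scaling: TMM factors shifted every ratio by -0.17 at 3 h and by -0.29 at 6 h, and mean UMIs per cell by 0.27 and 0.11. Under TMM factors 42.6% of genes at 3 h and 40.5% at 6 h lay above 0, where by CPM 64.1% did at both times; the calls at 6 h were then 11.6% higher and 16.9% lower.

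**Figure D1:**
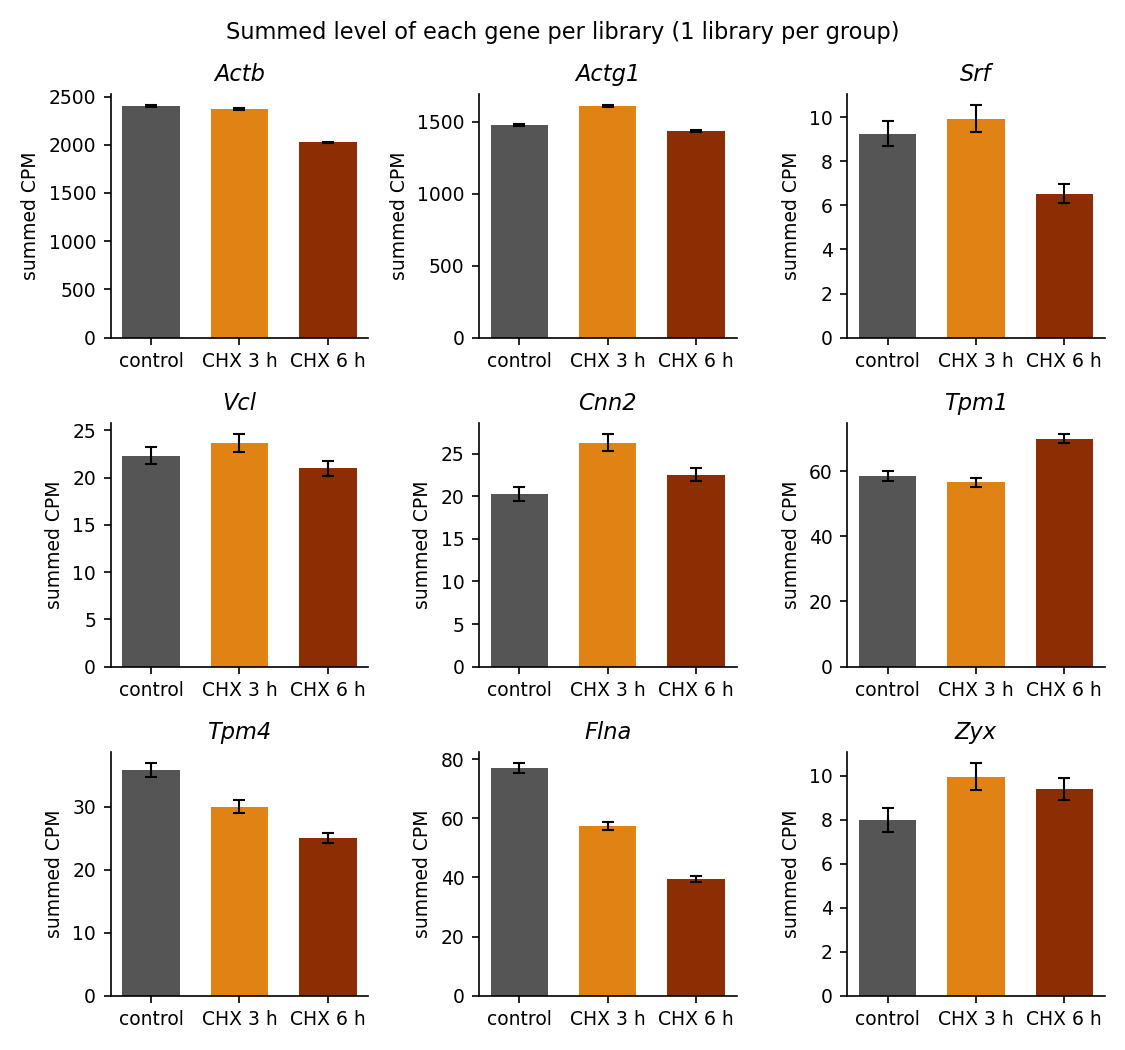
Summed CPM of each of the 9 genes (vertical axis, linear from 0) in the control, 3 h and 6 h cycloheximide (CHX) libraries; bars are 1 library each and error bars exact 95% Poisson intervals for counting error. Flna steps down from 77.1 to 57.4 and 39.4 CPM, whereas Tpm1 is highest at 6 h with 70.0 CPM.

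Actb (ENSMUSG00000029580, chromosome 5, 142903115 to 142906754, minus strand, GRCm38) encodes β-actin, a main building block of the cortical and stress fibre filaments of nonmuscle cells. It stood at 2402 CPM (2393 to 2411) without cycloheximide, 2368 CPM (2358 to 2377) after 3 h and 2026 CPM (2019 to 2033) after 6 h. The 3 intervals did not overlap, though control and 3 h lay close together, at a log2 ratio of -0.02 (-0.03 to -0.01). At 6 h the log2 ratio was -0.25 (-0.25 to -0.24), below that of all but 19.7% of the genes tested. The 3 h sign turned with the weighting: with every cell given equal weight the ratio was 0.04, and without barcodes above 2 times the median UMIs it was 0.01.

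Actg1 (ENSMUSG00000062825, chromosome 11, 120345690 to 120348542, minus strand) encodes γ-actin, the other cytoplasmic actin. Its level was 1473 CPM (1466 to 1480) without cycloheximide, 1606 CPM (1599 to 1614) after 3 h and 1433 CPM (1426 to 1439) after 6 h. The order was 3 h, control, 6 h, with no overlap of the counting intervals, but the ratios were small, at 0.12 and -0.04. Under TMM factors the 3 h ratio was -0.05, and by mean UMIs per cell the 6 h ratio was 0.07.

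The division of cytoplasmic actin UMIs between both genes does not depend on scaling between libraries, but it does depend on the weight of each cell. In summed UMIs, where deep cells count most, the share of Actb was lower in both treated libraries. Actb made up 62.0% (61.8 to 62.1, exact binomial interval) of their sum without cycloheximide, 59.6% (59.4 to 59.7) after 3 h and 58.6% (58.4 to 58.7) after 6 h. Barcodes with 10 to 100 UMIs, which hold RNA free in the droplets, had shares of 65.1%, 64.0% and 62.4%, in the same order. The sum of both genes was 3875, 3974 and 3459 CPM. These shares count captured 3' ends and are not corrected for how well each transcript is captured.

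Srf (ENSMUSG00000015605, chromosome 17, 46548329 to 46556175, minus strand) encodes the transcription factor of the pathway. Its 1030, 1061 and 916 UMIs gave 9.24 CPM (8.69 to 9.82) without cycloheximide, 9.93 CPM (9.34 to 10.5) after 3 h and 6.53 CPM (6.11 to 6.96) after 6 h. Control and 3 h intervals overlapped, and the 6 h interval lay below both. The log2 ratio was 0.10 (-0.02 to 0.23) for 3 h, -0.50 (-0.63 to -0.37) for 6 h and -0.61 (-0.73 to -0.48) for 6 h against 3 h. Without the 10 CPM floor the last of these would have been a call. It ranged from -0.77 to -0.60 over all settings tried.

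Flna (ENSMUSG00000031328, chromosome X, 74223461 to 74249820, minus strand) encodes filamin A, which crosslinks actin filaments into networks and ties them to membrane receptors. It stood at 77.1 CPM (75.4 to 78.7) without cycloheximide, 57.4 CPM (56.0 to 58.8) after 3 h and 39.4 CPM (38.4 to 40.4) after 6 h. The levels were in the order control, 3 h, 6 h, with wide gaps between the intervals. Log2 ratios were -0.43 (-0.47 to -0.38) for 3 h, -0.97 (-1.02 to -0.92) for 6 h and -0.54 (-0.60 to -0.49) for 6 h against 3 h. At 6 h, 2.59% of the genes tested had a lower ratio, and at 3 h 4.76%. Over all settings the 6 h ratio stayed between -1.27 and -0.86. At 3 h it ranged from -0.61 to -0.16, and under TMM factors it was a call there too.

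Tropomyosins are coiled-coil proteins that lie along actin filaments and govern which other proteins bind there. Tpm4 (ENSMUSG00000031799, chromosome 8, 72134975 to 72153142, plus strand) stood at 35.8 CPM (34.7 to 36.9) without cycloheximide, 29.96 CPM (28.9 to 31.02) after 3 h and 25.01 CPM (24.2 to 25.8) after 6 h. Its log2 ratios were -0.26 (-0.32 to -0.19) and -0.52 (-0.58 to -0.45), the same order as Flna with smaller steps; the 3 h ratio was 0.01 by mean UMIs per cell. Tpm1 (ENSMUSG00000032366, chromosome 9, 67022590 to 67049406, minus strand) stood at 58.5 CPM (57.1 to 59.9) without cycloheximide, 56.6 CPM (55.2 to 58.04) after 3 h and 69.96 CPM (68.6 to 71.4) after 6 h. Control and 3 h intervals overlapped, and the 6 h level stood above them. The log2 ratio was -0.05 (-0.10 to 0.00) for 3 h, 0.26 (0.21 to 0.30) for 6 h and 0.31 (0.26 to 0.35) for 6 h against 3 h. It was the only one of the 9 genes with a 6 h level above its 3 h level by CPM. That difference kept its sign in every setting, from 0.14 to 0.32, but the 6 h ratio against the control was -0.03 under TMM factors.

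Cnn2 (ENSMUSG00000004665, chromosome 10, 79988584 to 79996062, plus strand) encodes calponin 2, an actin-binding protein of nonmuscle and smooth muscle cells. It stood at 20.2 CPM (19.4 to 21.1) without cycloheximide, 26.3 CPM (25.3 to 27.3) after 3 h and 22.5 CPM (21.8 to 23.3) after 6 h. The 3 h level was above both others, with a log2 ratio of 0.38 (0.30 to 0.46), and the 6 h ratio was 0.16 (0.08 to 0.23), which became -0.13 under TMM factors. By mean UMIs per cell the 3 h ratio was 0.65 and passed 1.5-fold. Vcl (ENSMUSG00000021823, chromosome 14, 20929398 to 21033676, plus strand) encodes vinculin, which links actin to integrin and cadherin adhesions. It stood at 22.3 CPM (21.4 to 23.2) without cycloheximide, 23.7 CPM (22.7 to 24.6) after 3 h and 20.96 CPM (20.2 to 21.7) after 6 h. The control interval overlapped both others, and the ratios were 0.09 (0.01 to 0.17) and -0.09 (-0.17 to -0.01). Zyx (ENSMUSG00000029860, chromosome 6, 42349630 to 42360213, plus strand) encodes zyxin, a focal adhesion protein that joins sites of tension on filaments. It stood at 7.99 CPM (7.47 to 8.53) without cycloheximide, 9.97 CPM (9.38 to 10.6) after 3 h and 9.39 CPM (8.89 to 9.91) after 6 h. Its 3 h and 6 h intervals overlapped and lay above the control, with ratios of 0.32 (0.19 to 0.45) and 0.23 (0.11 to 0.36); the latter was -0.05 under TMM factors. Exons of Vcl, Tpm4 and Zyx overlap those of Ap3m1, Gm26586 and Epha1 on the opposite strand, and whether counting used strand is not given in the sources used here.

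**Figure D2:**
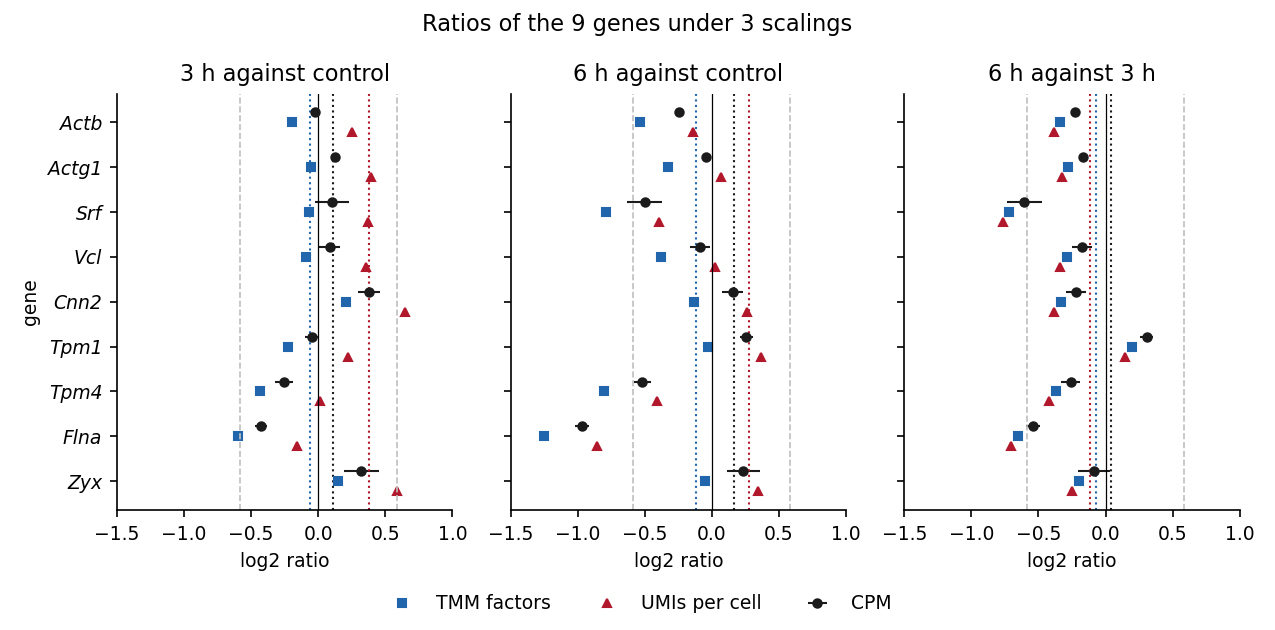
Log2 ratios (horizontal axis) of the 9 genes for the 3 comparisons by CPM (circles, with 95% counting intervals), TMM factors (squares) and mean UMIs per cell (triangles); dotted lines are the medians of all 7608 genes under the same scaling and dashed lines mark 1.5-fold. Flna lies left of the dotted lines in every panel, and Tpm1 lies right of them at 6 h against 3 h.

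Single cells were compared after each was thinned at random to 15000 UMIs, so that depth was equal and no cell was left out. Actb and Actg1 had a UMI in every cell of each library. The median cell held 33 Actb UMIs of 15000 (5th to 95th percentile 19 to 58) without cycloheximide, 34 (19 to 58) after 3 h and 29 (16 to 51.4) after 6 h. At 6 h, 33.4% of cells exceeded the control median and 18.8% lay under the control 10th percentile, against 8.37% of control cells. The 5th, 50th and 95th percentiles were all lower at 6 h than in the control, with wide overlap between the cells of the libraries. For Actg1 the medians were 21, 23 and 19 UMIs in the same order. Its distribution was broader after cycloheximide: at 6 h 14.9% of cells lay under the control 10th percentile and 9.95% above the control 90th percentile, against 8.96% and 8.64% of control cells.

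The spread beyond counting noise, measured as the excess squared coefficient of variation (variance minus mean, over squared mean), was 0.0983, 0.118 and 0.161 for Actg1 in the control, 3 h and 6 h libraries. The same order held when cells were thinned to 30000 UMIs (0.0895, 0.115 and 0.148), without barcodes above 2 times the median UMIs (0.105, 0.127 and 0.170) and without thinning (0.339, 0.486 and 0.521). For Actb the values were 0.0966, 0.0954 and 0.0958. The order of Actg1 was shared by Tpm1 (0.294, 0.375 and 0.421), Cnn2 (0.537, 0.755 and 0.790) and Srf (0.0983, 0.117 and 0.235). Thinned to 30000 UMIs, Tpm1 kept it and Cnn2 and Srf did not. Vcl (0.385, 0.249 and 0.356), Tpm4 (0.526, 0.410 and 0.511) and Zyx (0.815, 0.440 and 0.546) were lowest at 3 h. The median over 6056 genes was 0.0735, 0.0754 and 0.0775.

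Flna was the rarer transcript with the clearest displacement between libraries. A Flna UMI was found in 64.0% (62.0 to 66.03, exact binomial interval) of thinned control cells, 54.5% (52.1 to 56.9) of 3 h cells and 41.9% (39.97 to 43.8) of 6 h cells, and unthinned in 91.6%, 87.9% and 77.3%. The excess squared coefficient of variation of Flna was 0.171, 0.193 and 0.173. Shares for Tpm4 were 39.8%, 33.7% and 29.3%, and for Srf 13.4%, 13.3% and 8.93%; unthinned they were 76.5%, 71.2% and 64.4% for Tpm4 and 35.3%, 40.4% and 27.7% for Srf. Shares for Tpm1 were 56.2%, 55.95% and 62.5%, and unthinned 88.9%, 88.4% and 91.3%. Cnn2 had 24.8% in the control and 29.4% at 3 h, with 6 h in between, Vcl 28.4%, 28.3% and 25.8%, and Zyx 11.5%, 13.8% and 12.6%. Unthinned, Cnn2 had 54.3%, 62.5% and 55.8%, Vcl 60.95%, 65.1% and 59.01%, and Zyx 30.2%, 38.3% and 33.4%. These cultures hold no cell type known to lack the genes, so no background share could be set beside them. Free RNA held Flna at 89.8, 76.9 and 46.4 CPM, moving with the cells; after subtraction of 10% free RNA the 6 h ratio was -0.97. For Actg1 (1173, 1300 and 940 CPM), Cnn2 (23.3, 36.6 and 19.6 CPM), Tpm1 (46.1, 54.8 and 67.3 CPM), Tpm4 (27.0, 23.3 and 20.7 CPM) and Zyx (6.39, 6.66 and 4.59 CPM), free RNA was highest in the same library as the cells. The lowest library differed for Cnn2 and Zyx (6 h in free RNA, control in cells) and for Tpm1 (control in free RNA, 3 h in cells). Zyx had only 23, 22 and 18 free RNA UMIs. For 3 genes the highest library differed. Free RNA of Actb had 2186, 2306 and 1562 CPM, highest at 3 h, and that of Vcl 28.1, 24.2 and 19.6 CPM, highest in the control. Free RNA of Srf, with 23, 21 and 30 UMIs, had 6.39, 6.35 and 7.65 CPM, highest at 6 h where the cells were lowest.

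**Figure D3:**
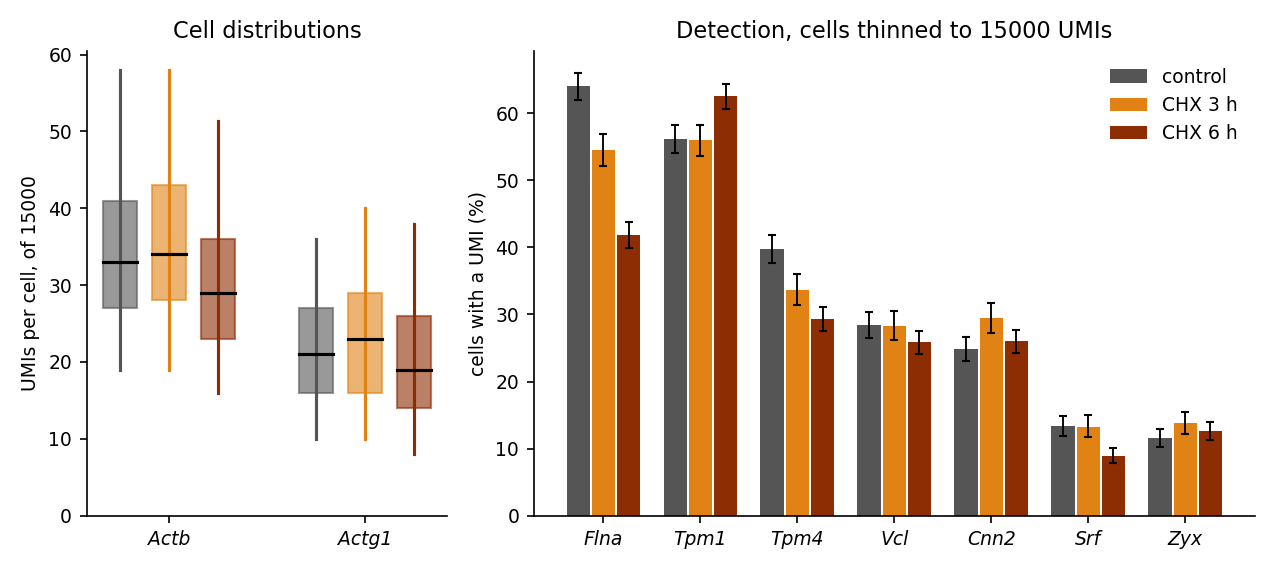
Left, UMIs of Actb and Actg1 per cell thinned to 15000 UMIs (lines 5th to 95th percentile, boxes quartiles, bars medians); right, percentage of thinned cells with a UMI of the other 7 genes with exact 95% binomial intervals, for the control, 3 h and 6 h libraries. The Flna bars step from 64.0% to 54.5% and 41.9%.

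Cells with few and with many UMIs differed in Actb one way without cycloheximide and the other way with it. In the control, the 729 deepest cells (median 73552 UMIs) had 37.3 Actb UMIs of 15000 and the 729 shallowest (median 30930) had 33.1, a log2 ratio of 0.18 (0.15 to 0.20). At 3 h the 579 deepest cells had 35.5 and the 580 shallowest 37.6, and at 6 h the 851 deepest had 29.6 and the 852 shallowest 31.9. These ratios were -0.08 (-0.11 to -0.05) and -0.11 (-0.14 to -0.09), opposite in sign to the control. For Actg1 the ratio of deep to shallow cells was above 0 in all 3 libraries, at 0.12, 0.23 and 0.20. Over 6056 genes the middle 90% of such ratios ran from -0.22 to 0.25 in the control, from -0.28 to 0.21 at 3 h and from -0.26 to 0.21 at 6 h. Actg1 at 3 h lay above that range, and the other actin values lay inside it. The cells of a library are not replicates, and these values are descriptions of those libraries.

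**Figure D4:**
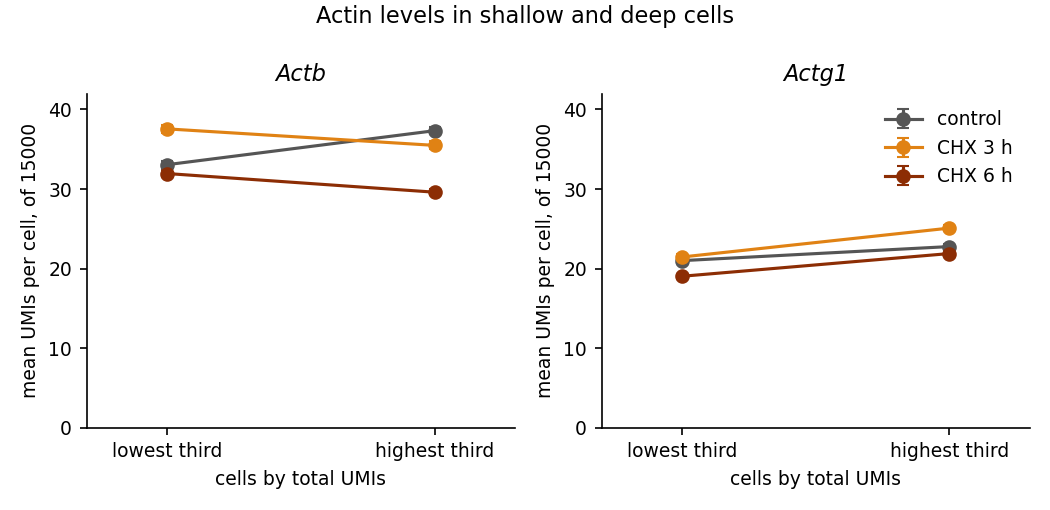
Mean Actb and Actg1 UMIs per cell thinned to 15000 UMIs (vertical axis, from 0) in cells with the lowest and highest total UMIs of each library; error bars are exact 95% Poisson intervals, mostly smaller than the points. Actb is higher in deep than in shallow cells in the control and lower in deep cells at 3 h and 6 h.

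Cells were also divided by other transcripts. In cells lowest in Nanog, against those highest in it, Actb had log2 ratios of 0.05, 0.04 and 0.02 in the control, 3 h and 6 h libraries. Cells with a Fos UMI had more Tpm4 than cells without in each library, at ratios of 0.26 (0.09 to 0.43), 0.40 (0.16 to 0.63) and 0.53 (0.24 to 0.80). There were 756, 374 and 232 cells with a Fos UMI. The same contrast for Actb gave 0.01, 0.06 and 0.05, and for Actg1 -0.07, 0.07 and 0.05. The Tpm4 values were above the 95th percentile of all genes, which was 0.17, 0.24 and 0.25, but their intervals reached below it. At 3 h Cnn2, at 0.42 (0.17 to 0.67), and Tpm1, at 0.31 (0.14 to 0.48), were above it too. Cnn2 had -0.07 in the control and 0.09 at 6 h, and Tpm1 0.14 and 0.09. Zyx in the control and at 6 h, and Srf at 6 h, also exceeded it, with intervals that included 0. In cells with the most mitotic transcripts, Actg1 had ratios of -0.08, -0.08 and -0.03.

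Among the 7 genes averaging 0.2 UMIs or more after thinning, Actb and Actg1 had the highest Pearson correlations of log counts across cells. Their correlations were 0.40, 0.34 and 0.36 over the 2187, 1739 and 2554 cells. They were also the most abundant, at 35.2 and 21.9 UMIs per thinned control cell. The others had 0.307 (Cnn2) to 1.12 (Flna). Counting noise lowers correlations of rare transcripts, and whether this ranking reflects more than abundance was not tested. Actg1 with Cnn2 gave 0.14, 0.25 and 0.25, and Actb with Cnn2 0.15, 0.15 and 0.20. The median over 21 pairs was 0.06, 0.08 and 0.10, while single genes had medians near 0 with all other genes (-0.002 for Actb in the control). Most of these are weak correlations of sparse counts within libraries, and no order is read from them. The 10 genes most alike to these 7, ranked by the mean over libraries of the correlation with their average z score among 6049 genes, were Myl6, Id2, Id3, Wdr1, Id1, Myl12a, Amotl2, Ajuba, Cfl1 and Bex1. Their mean correlations ran from 0.207 for Myl6, a light chain of myosin, to 0.130 for Bex1, around a median of 0.005 for all genes. Id2 and Id3, inhibitors of basic helix-loop-helix factors, had correlations of 0.087 and 0.086 in the control and of 0.214 and 0.223 at 3 h. Their own log2 CPM ratios at 3 h were 2.31 and 2.77. Id2 and Id3 averaged 0.487 and 0.670 UMIs per thinned cell in the control, and 2.45 and 4.78 at 3 h. The part of this better detection in their higher correlations was not tested.

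The cofactors of SRF, 6 genes, all had means under 10 CPM. Mrtfa, which encodes MRTF-A, stood at 6.83 CPM (6.35 to 7.33) without cycloheximide, 10.3 CPM (9.71 to 10.9) after 3 h and 10.1 CPM (9.60 to 10.7) after 6 h. Both treated levels lay above the control, with log2 ratios of 0.59 (0.46 to 0.73) and 0.57 (0.44 to 0.70), and 0.42 and 0.28 under TMM factors. Mrtfb had 6.19, 5.51 and 5.15 CPM, with ratios of -0.17 (-0.33 to -0.01) and -0.27 (-0.42 to -0.11). Elk3, a ternary complex factor named after its values were seen, had 9.39, 6.91 and 5.76 CPM and ratios of -0.44 and -0.71. The other Elk genes of the list, also named after their values were seen, had smaller ratios. Elk1 had 0.17 (0.05 to 0.29) and -0.06 (-0.18 to 0.06), and Elk4 -0.18 (-0.36 to 0.01) and -0.34 (-0.52 to -0.17). The muscle actins had few UMIs: Acta1 had 39, 46 and 73, Acta2 12, 9 and 12, and Actg2 3, 6 and 13 in the control, 3 h and 6 h libraries. Actc1, the cardiac actin, and Actbl2, a β-actin-like gene, had 0 in all 3. A limit of 3 counts per library puts these below 0.0269, 0.0281 and 0.0214 CPM, and the upper ends of their exact Poisson intervals are 0.0331, 0.0345 and 0.0263 CPM.

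Of 28 other genes described as MRTF and SRF targets, 15 passed the floor. At 3 h, 4 of these 15 were called higher and 0 lower, beside 13.9% and 2.13% of all genes. At 6 h, 4 were called higher and 2 lower, beside 22.1% and 7.79%. Their medians were -0.10 and -0.22, beside 0.11 and 0.17 for all genes, but the genes spread widely. Ccn2, a secreted matrix protein that is also a target of YAP, stood at 7.20 CPM (6.71 to 7.71) without cycloheximide, 34.4 CPM (33.3 to 35.6) after 3 h and 27.6 CPM (26.7 to 28.5) after 6 h, with ratios of 2.26 and 1.94. Csrp1, a LIM protein of actin bundles, had a ratio of 0.63 at 3 h and 21.7 CPM at 6 h against 9.46 CPM in the control. At the other end Myh9, the heavy chain of nonmuscle myosin IIA, had 74.9, 53.2 and 41.2 CPM, with ratios of -0.49 (-0.54 to -0.44) and -0.86 (-0.91 to -0.81). Actn1, which crosslinks filaments as α-actinin 1, had -0.21 and -0.59. The 4 genes called higher at 6 h were Lima1 (named after its values were seen), Csrp1, Ccn2 and Amotl2. Csrp1 and Ccn2 were under 10 CPM in the control and passed the floor through the treated libraries.

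The immediate early genes reached through ternary complex factors, 7 of 9 above the floor, had 4 called higher and 3 lower at 3 h, beside 13.9% and 2.13% of all genes. At 6 h, 1 of the 7 was called higher and 4 lower, beside 22.1% and 7.79%. Egr1 had 12.9, 27.5 and 3.01 CPM in the control, 3 h and 6 h libraries, and Fos 45.4, 20.2 and 6.93 CPM. Ier2 had ratios of 1.55 and 0.54, and Mcl1 of 0.73 and 0.62. The median of these 7 genes was 0.73 at 3 h and -1.85 at 6 h, beside 0.11 and 0.17 for all genes; that of the 7 of the 9 genes above the floor, which leave out Srf and Zyx, was -0.02 and -0.09.

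Genes of actin monomer handling and filament turnover, 16 of 20 above the floor, had 1 called higher and 0 lower at 3 h, beside 13.9% and 2.13% of all genes, and 1 each way at 6 h, beside 22.1% and 7.79%. Their medians were 0.04 and -0.01, beside 0.11 and 0.17. Pfn1, which promotes nucleotide exchange on monomers, had 1179, 1008 and 913 CPM, and Tmsb4x, which sequesters monomers, 1150, 900 and 852 CPM. Tmsb10, a relative of Tmsb4x, stood at 1334 CPM (1327 to 1341) without cycloheximide, 912 CPM (906 to 917) after 3 h and 749 CPM (745 to 754) after 6 h, a ratio of -0.83 at 6 h. Cfl1, which severs filaments, had ratios of 0.20 and 0.05, Cfl2 of 0.20 and 0.31, and Wdr1, its helper, of 0.07 and -0.45. Pfn2 alone was called higher, at both times, with 6.80 CPM in the control, 13.6 CPM at 3 h, a 6 h interval of 24.2 to 25.8 CPM and ratios of 1.00 and 1.88. Its control level was under the 10 CPM floor, which it passed through the treated libraries.

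The Arp2/3 complex, which nucleates branched filaments, had all 9 subunits above the floor, 0 calls at 3 h, beside 16% of all genes, and 1 lower at 6 h, beside 7.79%. Its medians were 0.00 and -0.02, beside 0.11 and 0.17 for all genes. Its subunits went both ways at 6 h: Arpc5 had -0.60 and Actr2 -0.50, while Arpc4 and Arpc5l each had 0.51. Focal adhesion partners of vinculin and zyxin, 15 of 17 above the floor, had 0 calls at 3 h, beside 16% of all genes. At 6 h, 1 was called higher and 4 lower, beside 22.1% and 7.79%, with a median of -0.22, beside 0.17. Bcar1, an adhesion scaffold, had 30.7, 26.9 and 13.8 CPM and a 6 h ratio of -1.15, and Pxn, which encodes paxillin, -0.79. Lims1 and Ilk, partners in 1 adhesion complex, had 0.71 and 0.57.

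**Figure D5:**
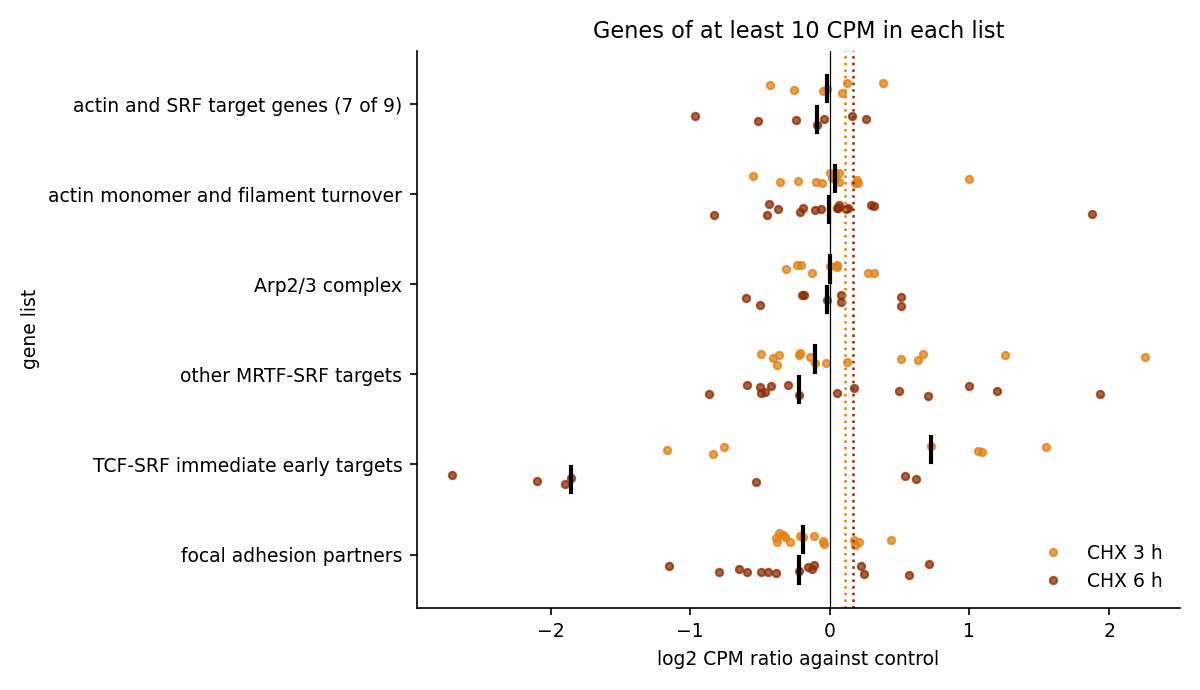
Log2 CPM ratios against the control (horizontal axis) of genes above the 10 CPM floor in each list described at 3 h and 6 h; each point is a gene, black bars are list medians and dotted lines the medians of all genes tested. The 7 actin and SRF target genes above the floor at 6 h span -0.97 to 0.26, a narrower range than the immediate early targets, which run from -2.71 to 0.62.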

How the data were processed

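Polyadenylated RNA of single E14 cells was measured in 3 libraries, 1 per group. The authors deposited unnormalized UMI counts for each gene and barcode, made with Cell Ranger 4 per the file headers (Cell Ranger 4.0.0 and mm10 per the submitters' processing notes); the annotation used is not given in the sources used here. Cell barcodes had not been called in these matrices, so the rule of at least 15000 UMIs and 1 to 20% mitochondrial UMIs was applied. The kept cells held 111447486, 106842407 and 140321458 UMIs. No doublets were removed; leaving out barcodes above 2 times the median UMIs was an alternative. Counts were summed per library and scaled to CPM. Ratios used a prior of 0.5 counts. Single-cell values used cells thinned without replacement. PCR duplicates are collapsed by UMIs, and intervals cover counting error only. Gene positions are from GENCODE M21 (GRCm38), whose chromosome annotation held 32158 of the 32285 identifiers.

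The genes and lists were chosen with earlier results of these data known. Named genes are the 9 genes, in each list the 2 highest and 2 lowest 6 h ratios above the floor and 8 genes with set roles, and the 10 genes most alike across cells. One list is not reported here. Alternatives were TMM factors (edgeR 4.0.16, R 4.3.3), mean UMIs per cell, median-ratio size factors, other limits on cells, free RNA subtraction, other floors, a 2-fold call and other thinning depths; equal weight per cell was added after seeing the data. Ratios, calls and thinning were tested on simulated data. Python 3.11.15, numpy 2.4.6, scipy 1.17.1 and pandas 2.3.3 were used.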

Additional observations from a re-analysis of the deposited data

Results flagged for a closer look

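Relative to the shared control library, Actg1 and Vcl were higher after 3 h and lower after 6 h, and neither time's counting interval for either gene reached 0. The difference between the 6 h and 3 h ratios was -0.17 for Actg1 and -0.17 for Vcl. With 1 library per time this difference was not tested. Under TMM factors both ratios of each gene were below 0, and by mean UMIs per cell both were above 0.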

How the results depend on the processing

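Over all alternatives, 192 of 297 ratios of the single genes stayed within their counting interval, 83 moved further in the same direction or nearer to 0 and 22 turned sign; the turned signs were those of ratios between -0.26 and 0.26. Of 42 counts of calls, 32 stayed within 1.5 times. The call of Flna at 6 h held in all settings but the 2-fold threshold, which left 0 calls. With no floor, 1 of 9 genes (Srf) was called between 6 h and 3 h. Under TMM factors the values were, for 3 h against control, 1 called (lower), a median of -0.20, Actg1 -0.050, Srf -0.071, Vcl -0.089; for 6 h against control, 2 called (lower), a median of -0.38, Cnn2 -0.13, Tpm1 -0.029, Zyx -0.053; for 6 h against 3 h, 1 called (lower), a median of -0.33. Under median-ratio size factors the values were, for 3 h against control, 1 called (lower), a median of -0.20, Actg1 -0.057, Srf -0.078, Vcl -0.096; for 6 h against control, 2 called (lower), a median of -0.39, Cnn2 -0.14, Tpm1 -0.042, Zyx -0.066; for 6 h against 3 h, 1 called (lower), a median of -0.34. By mean UMIs per kept cell the values were, for 3 h against control, 1 called (higher), a median of 0.25, Actb 0.25, Tpm1 0.22, Tpm4 0.013; for 6 h against control, a median of 0.020, Actg1 0.068, Vcl 0.020; for 6 h against 3 h, 1 called (lower), a median of -0.38. With equal weight per cell the values were, for 3 h against control, a median of 0.018, Actb 0.036, Srf -0.0067, Vcl -0.0056, Tpm1 0.018; for 6 h against control, a median of -0.17. Without barcodes above 2 times the median UMIs the values were, for 3 h against control, a median of 0.0099, Actb 0.0099. With a minimum of 30000 UMIs the values were, for 3 h against control, a median of -0.042. With no lower mitochondrial limit the values were, for 3 h against control, a median of -0.011. After 10% free RNA was subtracted the values were, for 3 h against control, a median of -0.030. The excess squared coefficient of variation of Srf at 6 h became -0.0022 at 30000 UMIs. Depth limits Srf and Zyx most, both with means under 10 CPM. No paired analysis was possible because each group had 1 library.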
